A study of Rattus norvegicus with 12 samples.

Results

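The PDGF and FGF genes described here were 9 names: the receptors Pdgfra, Pdgfrb, Fgfr1 and Fgfr2, the PDGF ligands Pdgfa and Pdgfc, and the FGF ligands Fgf2, Fgf7 and Fgf10. A member was the gene record that carries the name, and the record of highest mean FPKM where several carry it. This gave 8 members, all of them among the 11611 records tested of 22442 in all. Pdgfra, the receptor that binds PDGF-A, matched no record by this rule and was not analysed here, so that both PDGF receptors could not be compared. FPKM, the fragments mapped to a gene scaled to transcript length and to the size of the library, corrects for gene length, so that levels can be compared between genes.

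RNA was sequenced from fibroblast-like synoviocytes (FLS), cells grown out of the joint lining of male Sprague Dawley rats with adjuvant arthritis (AA), an arthritis raised by complete Freund's adjuvant. All 4 groups were such FLS, with 3 libraries each. The FCA group was kept in DMEM without further additions. Taurochenodeoxycholic acid (TCDCA), a bile acid conjugated with taurine, was given for 12 h at 10 µM to AT10, at 1 µM to AT1 and at 0.1 µM to AT01. The age of the rats is not given in the sources used here, and no FLS of healthy rats were compared. The study describes the replicate numbers 1 to 3 as sets of repeated studies. Nothing states that the 3 libraries of a group came from separate rats or cultures, so that p-values measure the spread between these libraries, which may be technical. In bulk RNA, fewer cells of a type and less RNA per cell cannot be told apart.

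PDGF and FGF are secreted growth factors that bind receptor tyrosine kinases on the cell surface. PDGF ligands act as dimers and are among the main mitogens of fibroblasts and of the lining cells of an inflamed joint. FGF ligands need heparan sulfate beside the receptor, and both families signal through the adaptor GRB2, RAS and the kinases of the ERK cascade, which induces its own inhibitors such as the Sprouty proteins.

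The cells carried the markers of fibroblasts. The summed FPKM of 9 fibroblast genes, led by Vim and Dcn, lay between 4940 and 6500 per library. The summed markers of endothelium (0.07 to 0.21), epithelium (0.25 to 0.57) and T cells (0 to 0.05) were near 0. Those of macrophages lay between 5.75 and 22, mostly from Cd14. These sums cover the markers with a record: 5 of 6 for endothelium, 2 of 5 for epithelium, 2 of 4 for T cells and 5 of 8 for macrophages. A missing record does not show absence, as the fibroblast marker Col1a2 matched none either. The list of smooth muscle or pericytes, of which pericytes also carry Pdgfrb, summed to between 24.8 and 42.9. Its means were 13 FPKM for Des, 7.12 for Cspg4, 5.69 for Mcam, 4.18 for Myh11 and 0.0292 for Notch3, and Rgs5 matched no record. Summed over all records, a library held 284210 to 309696 FPKM. The study lists the reads of each library, but read counts per gene do not come with the FPKM values used here, so the counting error of a single value is unknown and no counting interval is given.

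Pdgfrb and Fgf7 were the most abundant members, with a mean of 139 ± 19.1 and 138 ± 18.8 FPKM (SD, n = 12 libraries), ranks 338 and 339 of the records tested. Fgfr1 followed at 63.4, Pdgfa at 35.4, Fgfr2 at 8.48, Fgf10 at 8.14, Pdgfc at 4.05 and Fgf2 at 1.32 FPKM, rank 10906. Neighbours in this order were compared over the 12 libraries with a two-sided exact permutation test that flips the signs of the paired differences, adjusted over the 7 neighbouring pairs. The order was taken from these same values, and the libraries may be technical repeats. The p-values thus measure only how steadily a step recurred over these libraries. Pdgfrb was above Fgf7 in 5 of 12 libraries (exact permutation p = 0.989, adjusted p = 0.989), and Fgfr2 above Fgf10 in 7 of 12 (exact permutation p = 0.333, adjusted p = 0.389), so that neither pair differed beyond its spread. Fgf10 exceeded Pdgfc in 11 of 12 libraries (exact permutation p = 0.00342, adjusted p = 0.00479). The other 4 steps held in 12 of 12 libraries, each with the smallest p that the sign flips can give (exact permutation p = 0.000488, adjusted p = 0.000854).

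**Figure D1:**
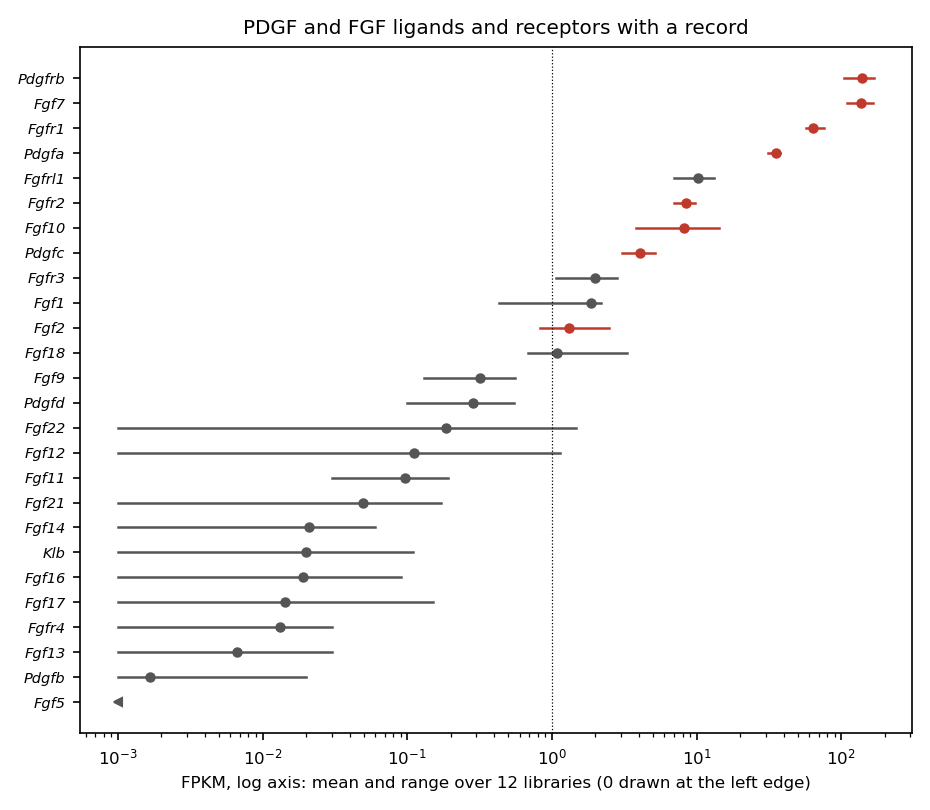
FPKM (log axis) of the 26 PDGF and FGF family genes with a record, the co-receptor Klb included: each dot is the mean and each line the range over 12 libraries, with a value of 0 drawn at the left edge, members in red and the other genes in grey. The dotted line is 1 FPKM, which 12 of the 26 means reach. Pdgfrb and Fgf7 lead, and Pdgfb and Pdgfd lie below the line.

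One gene made up most of each family. Fgf7, the keratinocyte growth factor that mesenchymal cells release, held between 86.1% and 94.4% (median 93%) of the summed FPKM of the 15 genes with an FGF name and a record. Fgf10, its closest relative, held 2.56% to 8.54%, and Fgf2, the basic FGF that is a mitogen of fibroblasts themselves, 0.494% to 2.08%. Fgfr1, the FGF receptor typical of mesenchymal cells, held 83.7% to 88.6% of the 4 signalling FGF receptors, and Fgfr2 9.99% to 13.8%. FGF7 and FGF10 bind a splice form of FGFR2 that is typical of epithelium, and values per gene do not separate the splice forms.

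Among the PDGF ligands, Pdgfa held 87.5% to 91.7% of the summed FPKM and Pdgfc 8.01% to 12.2%. Pdgfb was listed at 0 in 11 libraries and at 0.02 FPKM in AT10 replicate 3, and Pdgfd read 0.10 to 0.55 FPKM. PDGF-B and PDGF-D are the ligands that bind a pair of PDGFRB chains. A listed 0 need not mean a silent gene in these values: LOC108351137, a record described as glyceraldehyde-3-phosphate dehydrogenase, was listed at 0 in 6 libraries and at 1155 to 1285 FPKM in the other 6. In the study's list the 0 values are those of AT10 and AT01, and its q-PCR of GAPDH did not match them. Whether the same applies to Pdgfb was not tested. Outside the members, the highest family genes were Fgfrl1, a receptor without a kinase domain (mean 10.3 FPKM), Fgfr3 (1.98), Fgf1 (1.87) and Fgf18 (1.09).

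**Figure D2:**
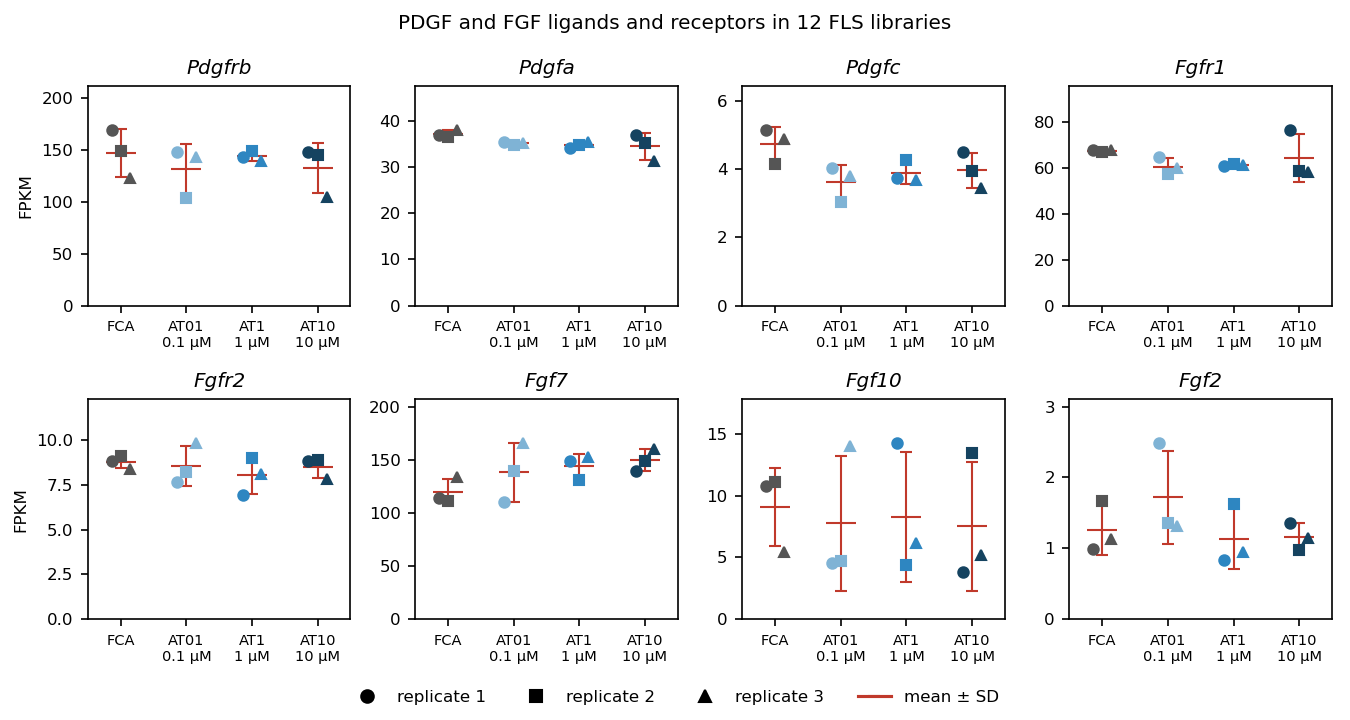
FPKM of the 8 members in each of the 12 libraries, by group in the order of the dose: points are libraries with the replicate number as the shape, and bars give the mean ± SD of 3 libraries. All axes start at 0. The AT10 points of Fgf7 (140.2 to 160.7) sit above the 3 FCA points, those of Fgf10 range widely within every group, and the FCA points of Pdgfa and Fgfr1 lie close together.

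The comparisons with FCA ask whether TCDCA moved these genes, and at which dose. Each was fitted with limma on log2(FPKM + 1) over all records tested, with Benjamini-Hochberg adjustment over all of them, and a fold change is on that scale, which understates the change of low genes such as Fgf2. No member reached an adjusted p under 0.05: 0 of 8 in AT10, where 0.172% of all records tested did, 0 of 8 in AT1 and in AT01, where 0.0947% did, and 0 of 8 with the 9 TCDCA libraries as 1 group, where 0.0258% did. An unadjusted p under 0.05 was met by 1 member in AT10 (Fgf7), against 11.9% of all records. It was met by 2 members in AT1 (Fgf7 and Fgfr1), against 11%, by 1 in AT01 (Pdgfc), against 6.6%, and by 2 with all TCDCA libraries (Fgf7 and Pdgfc), against 12%. The 4 comparisons share the 3 FCA libraries, so their values are not independent of each other. The smallest p of the exact permutation test (two-sided) is 0.1 for groups of 3, and 0.00455 for 9 libraries against 3.

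The direction was uneven between the members. In AT10 and in AT1, 7 members had a lower mean log2 value than FCA and 1, Fgf7, a higher one. In AT01, 6 were lower and 2, Fgf7 and Fgf2, higher. The median log2 fold change of the 8 members was -0.09 for AT10, -0.11 for AT1 and -0.12 for AT01, beside -0.01, 0.02 and 0.00 over all records. The summed markers of adipocytes were lower under TCDCA as well. Their 4 genes, mostly Cfd, gave 27.5 to 32.4 FPKM in FCA and 22.7 to 26.7 in the TCDCA libraries. The fat cell hormones Lep and Adipoq had means of 0.0125 and 1.87. With all TCDCA libraries, the limma adjusted p was 0.295 for Cfd, 0.353 for Plin1 and 0.442 for Adipoq. Of all single records, 1.9% had every TCDCA library below FCA. The summed chondrocyte markers also tended lower, with overlap: 7.55 to 9.75 FPKM in FCA and 4.66 to 8.19 in the TCDCA libraries. The fibroblast markers tended lower too. Of the 9 tested, 7 were lower and 2 higher in AT10 (median log2 fold change -0.23). With all TCDCA libraries 6 were lower and 3 higher (median -0.15), and 0 had a limma adjusted p under 0.05. The part of any of these lists in the values below was not tested.

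Fgf7 was the member with the highest fold change against FCA in AT10 and AT1. The FCA libraries read 115, 112 and 134 FPKM, and those of AT10 140.2, 149.8 and 161. All AT10 libraries were above all FCA libraries, which made Fgf7 the 1 member without overlap there. Over all records, 19.9% had no overlap, 10.7% with AT10 the higher and 9.18% with it the lower. The means were 120 ± 12.2 and 150 ± 10.2 FPKM (SD, n = 3), a log2 fold change of 0.32 ± 0.09 (SE, 95% interval 0.09 to 0.56, limma adjusted p = 0.297, exact permutation p = 0.1).

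At the lower doses Fgf7 varied more. In AT1 it read 149, 131 and 153 FPKM, with 2 libraries above the FCA range and 1 inside it (log2 fold change 0.27 ± 0.10 SE, limma adjusted p = 0.438, exact permutation p = 0.2). In AT01 it read 110.4, 140.0 and 166, which are the lowest and the highest values of the 12 libraries (0.19 ± 0.17, limma adjusted p = 0.824, exact permutation p = 0.4). Both ends of its range thus stood in 1 group, and the AT01 value was 0.05 without replicate 3 and 0.35 without replicate 1 of that group.

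With all doses together, 7 of 9 TCDCA libraries had more Fgf7 than every FCA library, a count reached upwards by 9.29% of all records. The log2 fold change was 0.26 ± 0.11 (95% interval 0.02 to 0.50, limma adjusted p = 0.38, exact permutation p = 0.0455). It ranged from 0.21 to 0.34 when each library was left out in turn. The adjusted p was lowest, 0.174, without AT01 replicate 1.

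Fgf7 also followed the first axis of variation between the libraries. Over the 12 libraries its log2 value had a Pearson correlation of 0.874 with the first principal component of all records tested. This component holds 13.8% of the variance, beside 11.7% and 10.6% for the following components. Its sign was set to that of Fgf7. On it the FCA libraries scored -20.72 to -5.05 and those of AT10 11.48 to 20.07. AT1 spanned -16.16 to 11.72 and AT01 -27.91 to 24.64. As a description, 548 other records tracked it at r above 0.8, whereas the median record had 19 such companions. Olr1, the receptor for oxidised LDL, was the named gene most like it (r = 0.971, n = 12), and Cenpc, a centromere protein, the next (0.969). The part of this axis in the difference of Fgf7 from FCA was not tested.

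Fgf10 had the widest spread of the members. It read 10.8, 11.1 and 5.43 FPKM in FCA, 3.81, 13.5 and 5.20 in AT10, 14.2, 4.39 and 6.14 in AT1, and 4.51, 4.70 and 14.02 in AT01. It thus stood at 10.8 to 14.2 FPKM in 5 libraries and at 3.81 to 6.14 in the other 7, with a gap of 0.72 on the log2 scale between them and ranges of 0.57 and 0.37 on either side of it. Every group held libraries on both sides of this gap: FCA replicates 1 and 2, AT10 replicate 2, AT1 replicate 1 and AT01 replicate 3 were above it.

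Of the 11611 records tested, 5, with Fgf10 among them, had these libraries as their 5 highest, and 20 had them as their 5 lowest. The SD of Fgf10 within groups was 0.747 on the log2 scale, above that of 97% of the 500 records nearest in level, whose median was 0.163. The named gene most like it was SNORD18 (r = 0.778, n = 12), and no record reached 0.8.

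The group means of Fgf10 were 9.09 ± 3.17 FPKM in FCA, 7.50 ± 5.23 in AT10, 8.25 ± 5.24 in AT1 and 7.74 ± 5.44 in AT01 (SD, n = 3), so that all differences were within the spread. The 9 TCDCA libraries differed from FCA by -0.30 on the log2 scale, with a 95% interval of -1.20 to 0.60 (limma adjusted p = 0.793) that covers both directions. It was -0.59 without FCA replicate 3, -0.14 without FCA replicate 2 and 0.01 with an F test on the log scale in the manner of Ballgown. A second record named Fgf10 read at most 1.05 FPKM and was not tested.

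**Figure D3:**
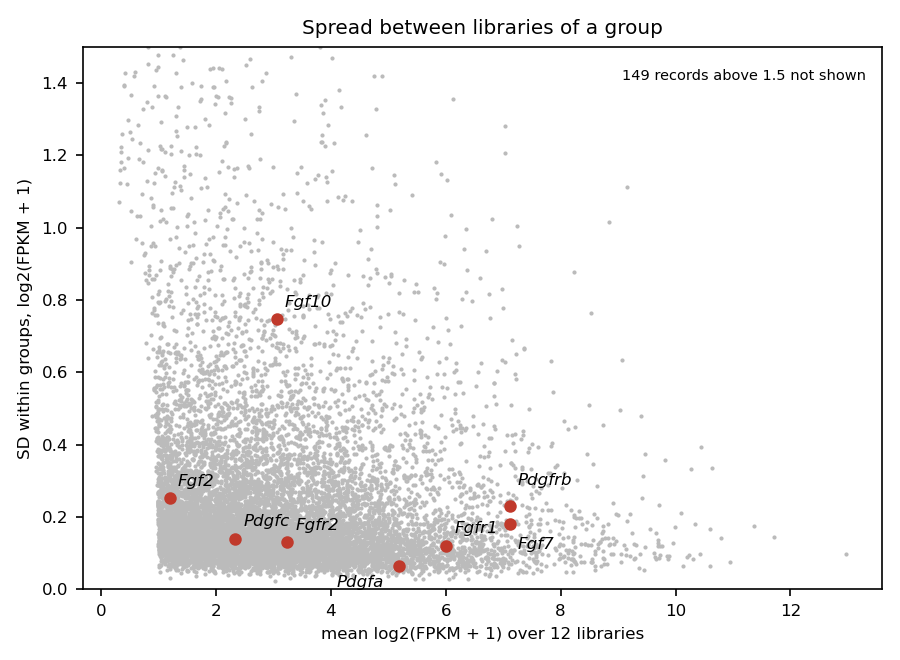
Spread between the libraries of a group (y axis, SD within groups of log2(FPKM + 1)) against the mean level (x axis) for the records tested, as grey points, with the 8 members in red. 149 records above 1.5 are not drawn. Fgf10 lies at 0.747, near the upper edge for its level, and Pdgfa at 0.0635, near the lower edge.

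Fgf2 was close to the detection filter of 1 FPKM. It read 0.99, 1.67 and 1.13 FPKM in FCA, 1.36, 0.98 and 1.15 in AT10, 0.83, 1.63 and 0.94 in AT1, and 2.48, 1.36 and 1.32 in AT01. The groups overlapped at every dose, and the library of 2.48 FPKM, AT01 replicate 1, stood apart from the rest. On the log2 scale AT10 differed from FCA by -0.06, AT1 by -0.09 and AT01 by 0.25, with limma adjusted p between 0.823 and 0.884. The AT01 value was 0.06 without AT01 replicate 1, and without FCA replicate 2 those of AT10 and AT1 turned to 0.07 and 0.03. U2af1, which codes for a splicing factor, was the named gene most like it (r = 0.926, n = 12).

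Fgfr1 had the closest FCA values of the members. It read 67.8, 66.7 and 67.7 FPKM in FCA, 60.7, 61.6 and 61.1 under 1 µM, 64.6, 57.2 and 59.8 under 0.1 µM, and 76.5, 58.7 and 58.0 under 10 µM. In AT1 and AT01 every library was below every FCA library, and in AT10 replicates 2 and 3 were below and replicate 1 above them all. Of all records tested, 19.9% had no overlap between AT1 and FCA and 14% none between AT01 and FCA. AT1 was the lower group in 10% and AT01 in 8.06% of all records.

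In AT1 Fgfr1 differed from FCA by -0.14 ± 0.04 on the log2 scale (SE, 95% interval -0.25 to -0.03, limma adjusted p = 0.428, exact permutation p = 0.1). The AT01 difference was -0.15 ± 0.07 (limma adjusted p = 0.722, exact permutation p = 0.1) and that of AT10 -0.08 (limma adjusted p = 0.791). With all doses together it was -0.12 ± 0.08 (limma adjusted p = 0.538, exact permutation p = 0.132), with 8 of 9 libraries below FCA. Without AT10 replicate 1 it was -0.16, with an adjusted p of 0.229. The named genes most like Fgfr1 over the 12 libraries were Fstl3, which codes for a binder of activin (r = 0.879), and Atp6v0a1, a subunit of the vacuolar proton pump (0.877).

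Fgfr2, the less abundant of both FGF receptors, read 8.83, 9.13 and 8.41 FPKM in FCA, 8.82, 8.90 and 7.81 in AT10, 6.94, 9.03 and 8.14 in AT1, and 7.68, 8.23 and 9.83 in AT01. The groups overlapped at every dose. Its log2 fold change against FCA was -0.04 for AT10, -0.12 for AT1 and -0.04 for AT01, with limma adjusted p of 0.819, 0.641 and 0.947. For all TCDCA libraries it was -0.07 (adjusted p = 0.763). Myl4, a myosin light chain, was the named gene most like it (r = 0.878, n = 12).

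Pdgfa was the steadiest member. It read 37.0, 36.5 and 38.0 FPKM in FCA, 34.1, 34.8 and 35.3 under 1 µM, 35.5, 34.8 and 35.3 under 0.1 µM, and 37.0, 35.3 and 31.3 under 10 µM. The AT1 and AT01 libraries lay below all FCA libraries, and 2 of the 3 AT10 libraries did. Its SD within groups, 0.0635 on the log2 scale, was above that of 7.6% of the 500 records nearest in level, whose median was 0.135.

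The size of the Pdgfa difference was small. On the log2 scale AT10 differed by -0.11, AT1 by -0.10 and AT01 by -0.08, with limma adjusted p of 0.601, 0.492 and 0.816. The AT10 value was -0.04 without AT10 replicate 3. Over all doses it was -0.09 ± 0.05 (SE, limma adjusted p = 0.478, exact permutation p = 0.0409), and 8 of 9 TCDCA libraries were below every FCA library. The named genes most like Pdgfa were Ece1, the endothelin converting enzyme (r = 0.921, n = 12), and Mrc2, a collagen receptor of fibroblasts (0.915).

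Pdgfc, whose product is secreted in a latent form and cut by tissue plasminogen activator, read 5.15, 4.15 and 4.89 FPKM in FCA, 4.50, 3.94 and 3.46 in AT10, 3.73, 4.28 and 3.68 in AT1, and 4.02, 3.04 and 3.80 in AT01. The 3 AT01 libraries were below all FCA libraries, and 2 of 3 were in AT10 and in AT1. Pdgfa, Pdgfc and Fgfr1 were thus the 3 members without overlap in AT01, where 14% of all records had none. Pdgfa and Fgfr1 were the 2 in AT1, where 19.9% of all records had none. In AT01 the log2 fold change of Pdgfc was -0.31 ± 0.12 (SE, 95% interval -0.62 to -0.01, limma adjusted p = 0.72, exact permutation p = 0.1). It was -0.21 in AT10 and -0.22 in AT1 (limma adjusted p = 0.518 and 0.458). With all doses it was -0.25 ± 0.09 (95% interval -0.44 to -0.05, limma adjusted p = 0.347, exact permutation p = 0.0227), and 7 of 9 TCDCA libraries were below every FCA library.

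That count of at least 7 of 9 TCDCA libraries below FCA was reached by 3 of the 8 members (Pdgfa, Pdgfc and Fgfr1), and by 9.92% of all records. The 3 genes varied together over the 12 libraries. Pearson's r was 0.762 for Pdgfc with Fgfr1, 0.707 for Pdgfa with Fgfr1 and 0.707 for Pdgfa with Pdgfc (n = 12), as a description of libraries that share the difference between groups.

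Pdgfrb read 169, 149 and 122 FPKM in FCA, 148, 145 and 105 in AT10, 143, 149 and 139 in AT1, and 148, 104 and 143 in AT01. FCA replicate 1 was the highest of the 12 libraries, the groups overlapped at every dose, and the libraries of AT1 were the closest to each other. The log2 fold change against FCA was -0.15 for AT10, -0.02 for AT1 and -0.16 for AT01 (limma adjusted p = 0.735, 0.966 and 0.846). Over all doses it was -0.11 (adjusted p = 0.762), with -0.23 when FCA replicate 3 and 0.00 when FCA replicate 1 was left out. In AT10 it was 0.01 without AT10 replicate 3. A second, smaller record named Pdgfrb had a mean of 3.11 FPKM and was not used. Ube4b, a ubiquitin ligase, was the named gene most like Pdgfrb (r = 0.884, n = 12), followed by Tsc2, an inhibitor of mTOR signalling (0.857).

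**Figure D4:**
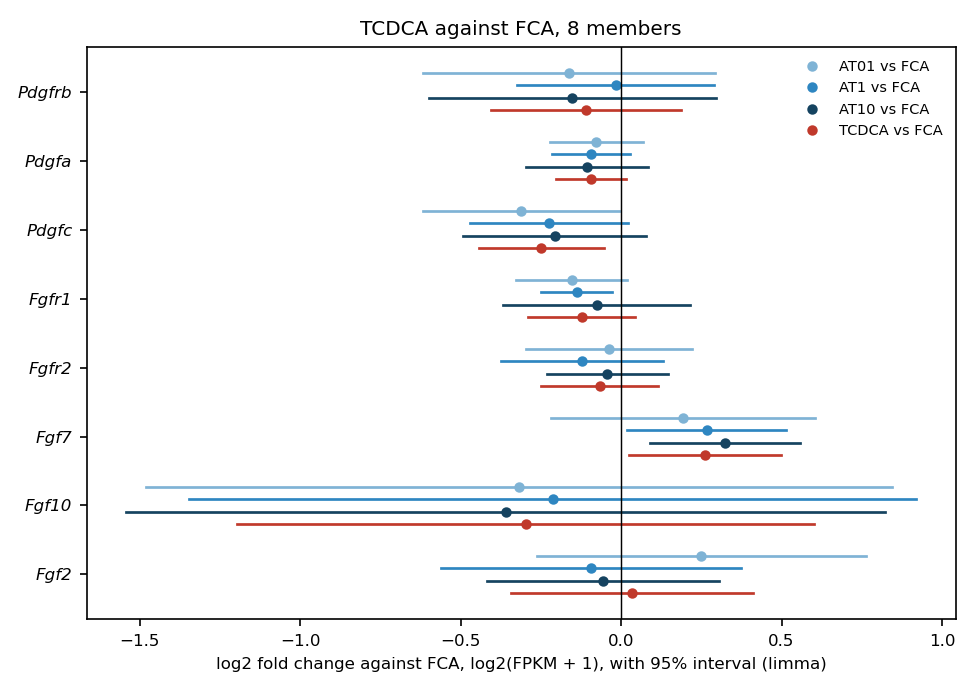
Log2 fold change of the 8 members against FCA on log2(FPKM + 1) (x axis) with the 95% interval from limma, for AT01, AT1 and AT10 and for the 9 TCDCA libraries together. The line is 0. Fgf7 lies to the right of it in all 4 comparisons and Pdgfc, Pdgfa and Fgfr1 to the left, the intervals of Pdgfa are narrow and those of Fgf10 wide, and no member has an adjusted p under 0.05.

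Between the doses, 0 of the 8 members passed the adjusted threshold in limma. Over all records, 0.258% passed it for AT10 over AT1, 0.0689% for AT10 over AT01 and 0.129% for AT1 over AT01. An unadjusted p under 0.05 was met by 0 members, beside 6.46%, 4.97% and 3.43% of all records. Members without overlap between 2 doses also numbered 0, beside 13.9%, 11.1% and 8.6% of all records. The intervals leave room for differences of some size: AT10 minus AT1 lay between -0.16 and 0.27 on the log2 scale for Fgf7, between -0.23 and 0.35 for Fgfr1, and between -1.52 and 1.23 for Fgf10.

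The rest of the pathway was followed through 7 lists of other PDGF and FGF genes. In the comparisons with FCA, 2 listed genes passed the adjusted threshold, and both belonged to the 16 tested feedback and target genes of the ERK cascade. Spry4, a Sprouty inhibitor that growth factor signalling induces, fell in AT10. It read 8.74, 8.80 and 8.51 FPKM in FCA and 0.40, 0.26 and 0.23 in AT10 (log2 fold change -2.90 ± 0.08 SE, limma adjusted p = 0.000427, exact permutation p = 0.1).

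At the lower doses Spry4 stood at both levels. It read 0.31, 8.70 and 7.98 FPKM in AT1 and 8.29, 8.63 and 0.34 in AT01, so that 1 library of each dose was as low as AT10. The adjusted p of the AT10 difference was 0.399 in 1 fit over all 12 libraries, which share their spread, and 0.102 with an F test on the log scale in the manner of Ballgown.

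Egr1, an immediate early transcription factor of the ERK cascade, fell in AT1. It read 40.1, 43.2 and 41.9 FPKM in FCA, 24.3, 25.5 and 22.4 under 1 µM, 22.3, 28.2 and 23.4 under 0.1 µM, and 46.7, 47.0 and 41.5 under 10 µM. The AT1 and AT01 libraries lay apart from all FCA and AT10 libraries. The log2 fold change was -0.77 ± 0.07 in AT1 (SE, limma adjusted p = 0.0488, exact permutation p = 0.1) and -0.74 ± 0.10 in AT01 (adjusted p = 0.178), and AT10 was above AT1 by 0.88 (adjusted p = 0.0261). The AT1 call was lost with any of the 6 libraries left out, at an adjusted p of 0.0502 to 0.14.

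The other genes of the ERK list stayed above the threshold. Of its 16 genes, 10 were higher and 6 lower than FCA in AT10 (median log2 fold change 0.07), 4 higher and 12 lower in AT1 (-0.23) and 2 higher and 14 lower in AT01 (-0.22), beside medians over all records of -0.01, 0.02 and 0.00. Ccnd1, the cyclin that drives entry into S phase and the most abundant of the list, read 126.5 to 140.3 FPKM in 11 libraries and 30.5 in AT1 replicate 3.

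In the other lists, 0 tested genes had an adjusted p under 0.05 against FCA. Among the 9 heparan sulfate proteoglycans and FGF binding proteins tested, 1 had an unadjusted p under 0.05 with all TCDCA libraries, namely Gpc1, a share near the 12% of all records. This glypican, a co-receptor of FGF, read 70.1, 70.1 and 59.0 FPKM in FCA and 31.5 to 56.5 in the 9 TCDCA libraries, all of them below FCA, as in 1.9% of all records. Of the 8 members, 0 parted TCDCA from FCA so fully, as 2.86% of all records did in either direction. Its log2 fold change was -0.59 ± 0.19 (SE, limma adjusted p = 0.311, exact permutation p = 0.0136). Sdc4, a syndecan and the most abundant of that list, was below every FCA library in 8 of 9 (-0.11, limma adjusted p = 0.42).

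The 6 proteases that cut PDGF precursors were all tested, and 1 had an unadjusted p under 0.05 with all TCDCA libraries, where 12% of all records did. This was Furin, which processes PDGF-A, with means of 123 ± 7.55 FPKM in FCA and 111 ± 7.22 in TCDCA (SD, n = 3 and 9) and a log2 fold change of -0.16 (limma adjusted p = 0.38). Plat, the tissue plasminogen activator that cuts PDGF-C, read 82.6, 82.8 and 86.7 FPKM in FCA and 74.7, 68.7 and 70.6 in AT10. These groups did not overlap (-0.23, limma adjusted p = 0.23, exact permutation p = 0.1), as in 19.9% of all records, 9.18% with AT10 the lower. In AT1 Plat differed from FCA by -0.003 and in AT01 by -0.04. With all doses together it was -0.09 (limma adjusted p = 0.642).

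The receptor adaptors and signal enzymes had 23 tested genes, of which 12 were higher and 11 lower with all TCDCA libraries (median log2 fold change 0.05). An unadjusted p under 0.05 was found for 4 higher and 3 lower, beside 12% of all records. Grb2, the adaptor of both receptor families, read 53.7 to 56.2 FPKM in FCA and 20.9 to 52.9 in TCDCA. All 9 were below FCA, as in 1.9% of all records, though the highest lay close to the FCA range. The lowest was AT10 replicate 2 (-0.26, limma adjusted p = 0.666, and -0.13 without that library). Map2k1, the ERK kinase MEK1, read 34.8 to 63.7 in FCA and 34.3 to 74.2 in TCDCA. Among the other family genes, both tested FGF ligands (Fgf1 and Fgf18) and both tested FGF receptors (Fgfrl1 and Fgfr3) had adjusted p between 0.524 and 0.976 with all TCDCA libraries, and of the other PDGF genes none reached the filter.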

How the data were processed

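Per the labels, RNA of 12 libraries of rat FLS was sequenced, 3 in each of 4 groups taken from the sample titles. The labels and the study's methods name different sequencers. The deposited values are FPKM to 2 decimals for 22442 gene records. The authors aligned reads with HISAT2 and estimated FPKM with StringTie and Ballgown, and the genome build is not given in the sources used here. The processing notes of the submitters also name cutadapt and edgeR. No scaling beyond FPKM is stated. The study lists the reads per library, and read counts per gene were not used here, so the counting error of a value is unknown.

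From these, log2(FPKM + 1) of the 11611 records that averaged 1 FPKM or more was fitted with limma 3.58.1 in R 4.3.3 (trended eBayes, the groups of a comparison alone, 7 comparisons), with Benjamini-Hochberg adjustment over all records tested. Exact permutation tests are two-sided on the difference of mean log2 values. Fits were tested on simulated data with planted changes larger than those of any member, so that changes of the members' size were not covered. Figures used Matplotlib 3.10.9.

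The members and gene lists (7 of pathway genes, 8 of cell type markers) were chosen with earlier results of these data known. Named were all members, the 2 named records most correlated with each, the 2 most abundant genes of each list, and listed genes with an adjusted p under 0.05 against FCA, of which the text gives those that bear on the members. Gpc1, Grb2 and Ccnd1 fall under this rule, and the count of at least 7 of 9 libraries was chosen after the values were seen. Alternatives were a Ballgown-style F test, a single fit of all 12 libraries, median-of-ratios scaling, sums of FPKM over records of 1 name, 0.1 as the pseudocount, all records or those averaging 10 FPKM in the test, the replicate number as a block, and each library left out. For the listed genes they were run after the data were seen.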

Additional observations from a re-analysis of the deposited data

Results flagged for a closer look

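In the 9 TCDCA libraries, the extreme value of each of the 8 members was set against its nearest neighbour, and 2 members had a library far from the others. Fgfr1 read 76.53 FPKM in AT10 replicate 1, where the next highest TCDCA library read 64.63, a gap of 0.617 of the whole range. Fgf2 read 2.48 FPKM in AT01 replicate 1, with the next at 1.63, a gap of 0.515 of the range. Chance marks about 1 in 20 groups in this way.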

How the results depend on the processing

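The number of members with an adjusted p under 0.05 was 0 in all 7 comparisons and stayed 0 in all 104 alternative fits. Of 804 alternative fold changes of single members, 57 changed sign, and in none of these was the unadjusted p under 0.05 in either fit. With a mean of at least 10 FPKM only 4 members were fitted. The replicate numbers did not pair the libraries: deviations from the group means of same-numbered libraries correlated between -0.105 and 0.0942 (18 pairs), and 4 of 12 libraries correlated best with their own number. With the replicate block, 0 members passed in every comparison, and the calls over all records went from 20 to 1 in AT10, from 11 to 0 in AT1, from 11 to 2 in AT01 and from 3 to 1 with all TCDCA libraries. Under it Spry4 in AT10 had an adjusted p of 0.0676 and Egr1 in AT1 0.351. Egr1 in AT1 also missed the threshold with a pseudocount of 0.1 (0.0535), no filter (0.0814) and the F test (0.535), and in AT01 it passed in 1 fit over all 12 libraries (0.0427). With 3 libraries in a group and no read counts per gene, the precision of each value rests on the spread between libraries alone.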

Other observations

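The listed genes with 1 library far from the rest were not all low in the same library. Ccnd1 was low in AT1 replicate 3 (30.5 FPKM), Grb2 in AT10 replicate 2 (20.9 FPKM) and Fgf1 in AT01 replicate 1 (0.43 FPKM, against 1.84 to 2.17 in the other 11). Fgf18 was high in AT10 replicate 2 (3.30 FPKM, against 0.68 to 1.27). These values were singled out after they were seen.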
